A study of Mus musculus with 48 samples.

Results

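The comparison set kidneys of mice given D-alanine against kidneys of mice given vehicle, all collected at circadian time 12 (CT12). It drew on 8 samples of the 48 in the series, chosen by their labels alone: 4 labelled D-alanine and CT12 and 4 labelled vehicle and CT12. The labels call the animals WT (wild type) and give neither dose, route, age nor sex. The other 40 samples cover 5 further circadian times (CT0, CT4, CT8, CT16 and CT20) with the same 2 treatments, 4 samples in each group. According to the series text the kidneys came from different mice and the experiment was run 2 times; the values sit in 2 tables with 2 samples of each group in each, and the tables were taken to be those runs, which is an inference. Replicates 1 and 2 of each group are in the first table and replicates 3 and 4 in the second; the numbers follow the order of the samples and pair nothing.

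D-alanine is the mirror image of the common amino acid L-alanine. The kidney filters and reabsorbs it, and D-amino acid oxidase, which is abundant in the proximal tubule, turns it into pyruvate. In circadian time, CT0 is the start of the subjective day and CT12 the start of the subjective night, when mice become active. The kidney clock is a feedback loop in which the activators BMAL1 (gene Arntl) and CLOCK switch on the Period and Cryptochrome repressors, the REV-ERB receptors and output factors such as DBP, and around CT12 many of these targets are high while Arntl is low.

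Values are FPKM, fragments counted per kilobase of gene and scaled to the size of the library, so a level can be compared between genes. Differences are D-alanine minus vehicle on the log2(FPKM + 1) scale, which understates the change of low genes. They come from 1 limma model over all 48 samples with the table as a term, so that all groups share the estimate of the spread. A gene was called when its p-value, adjusted over all 14922 genes tested by the Benjamini-Hochberg method, was under 0.05.

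The 8 CT12 libraries held 9951212 to 12007055 fragments (median 11117267). They were kidney by their markers: Lrp2, the megalin receptor of the proximal tubule, was at 35.1 to 61.3 FPKM, while 6 of the 7 pancreas markers and the adrenal genes Cyp11b1, Cyp11b2 and Nr5a1 were at 0 in all 8. The remaining pancreas marker, Cela1, was at 39.6 to 83.8 FPKM. Other adrenal markers reached at most 0.876 FPKM (Star in vehicle replicate 1). The brown fat genes Ucp1 and Cox8b were at 1.70 and 2.67 in vehicle replicate 2 and 1.17 and 2.12 in D-alanine replicate 2. They were at or under 0.481 in the other libraries. Y-linked transcripts such as Eif2s3y were present in all 8 libraries at 13.8 to 20.9 FPKM. Between 14.9% and 46.8% of the FPKM came from mitochondrially encoded genes, and this share followed the table: it was 38.3%, 46.8%, 17.6% and 17.9% in the vehicle libraries and 39.7%, 46.0%, 18.6% and 14.9% in the D-alanine libraries. The groups differed by -0.326 percentage points, with p = 0.944 in an exact permutation test within tables, two-sided, whose smallest possible p was 0.0556.

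A set of 3 libraries stood apart by genes of the inner medulla, the deepest and saltiest zone of the kidney. Slc14a2, the urea transporter of the inner medullary collecting duct, was at 31.4, 2.79, 0.22 and 2.32 FPKM in the vehicle libraries and 0.95, 18.2, 0.68 and 16.1 in the D-alanine libraries. Akr1b3, the aldose reductase that makes the osmolyte sorbitol, was at 95.01, 8.84, 6.18 and 8.92 in vehicle and 6.74, 81.7, 5.52 and 65.0 with D-alanine. Vehicle replicate 1 and D-alanine replicates 2 and 4 were thus high for both genes, and the same 3 had the highest mean log2 level over the 12 inner medulla markers tested, 5.17, 4.84 and 4.60 against 2.59 to 3.24 in the other 5. For Fxyd2, Slc6a6 and Bcat1 these 3 libraries were not the highest, while for each of the other tested markers they were. Fxyd2 was at 519, 506, 801 and 769 FPKM in vehicle and 596, 480, 739 and 754 with D-alanine. Leaving the 3 out turned the differences for Slc14a2 and Akr1b3 from 0.28 and 0.51 to -0.66 and -0.61. The mean level differed by 0.128 between the groups (exact permutation test within tables, two-sided, p = 0.944). In the whole series 5503 genes varied with this level (limma, adjusted p under 0.05 with the level as a covariate). A number of the values below turned sign or moved by over 1.5 times without these 3 libraries, and the main ones are given both ways. That setting keeps D-alanine replicates 1 and 3 and vehicle replicates 2, 3 and 4, so each D-alanine library is alone in its table. D-alanine replicate 1 thus weighs more there, also for genes where it was far from its group (Dbp, Ciart and Pdk4). In tissue RNA, fewer cells of a type and less RNA per cell cannot be told apart, which holds for every marker below.

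**Figure D1:**
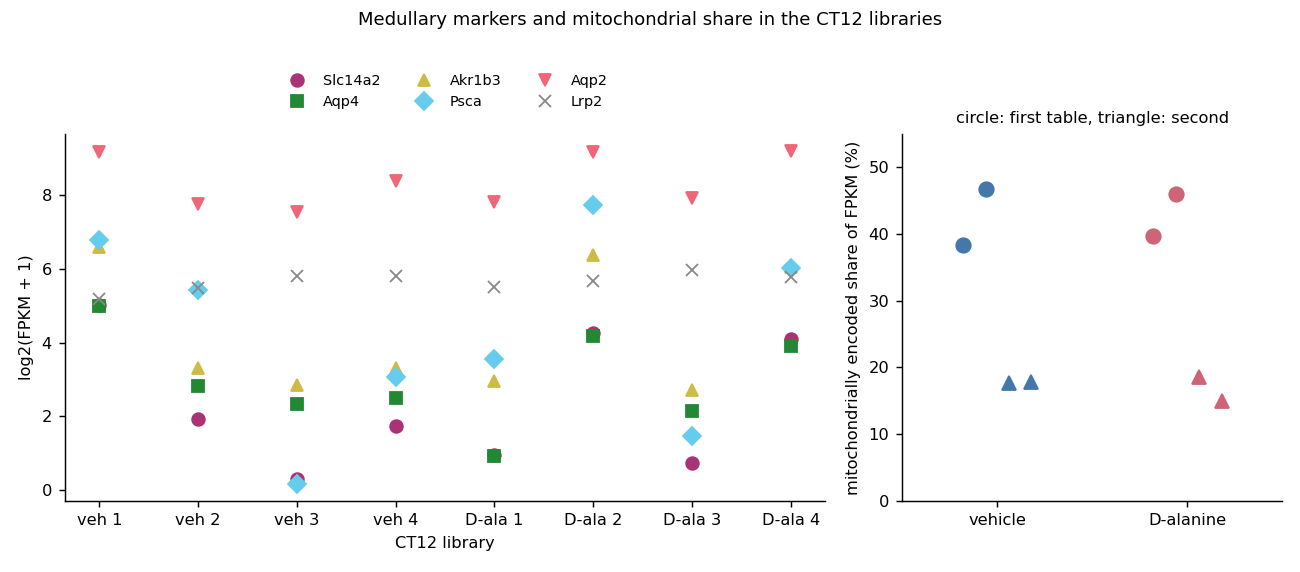
Left, log2(FPKM + 1) of 4 inner medulla and urothelial genes (Slc14a2, Aqp4, Akr1b3, Psca), the collecting duct water channel Aqp2 and the proximal tubule receptor Lrp2 in each CT12 library. Right, the percentage of FPKM from mitochondrially encoded genes by treatment. Vehicle replicate 1 and D-alanine replicates 2 and 4 are high for the medullary genes, and the mitochondrial share is 38.3% to 46.8% in the first table and 14.9% to 18.6% in the second for both treatments.

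No gene was called between D-alanine and vehicle at CT12. By limma 0 of 14922 genes, 0%, had an adjusted p under 0.05, and the smallest adjusted p was 1. At an unadjusted p under 0.05 there were 338 genes, 222 higher (1.49% of those tested) and 116 lower (0.777%) with D-alanine. Both shares together lie below the share of 0.05 that such a threshold passes on average when no gene differs. The count was 596 in a fit of the CT12 libraries alone and 410 with a table term for each time. Limma voom on fragments recovered from the FPKM steps also called 0 genes, of 14894, with 281 at an unadjusted p under 0.05. Across genes the median difference was 0.03, and 60.4% of the differences were above 0. The balance of the genes at an unadjusted p under 0.05 turned with the scaling: 126 were higher and 183 lower after centring each library on its median gene, and 145 higher and 195 lower after quantile normalization. The median SE was 0.142 and the median 95% interval reached 0.288 to either side of the gene's own difference. For a gene as variable as Slc14a2 the interval ran from -1.73 to 2.29.

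Both libraries of the D-alanine group lay above both vehicle libraries in each table for 2.91% of genes and below them for 1.66%. All 4 D-alanine values lay above all 4 vehicle values for 0.911% of genes and below them for 0.268%. The 2 tables gave differences with the same sign for 48.6% of genes, and across the 14922 genes, which are not independent replicates, Spearman's rho between the tables' differences was -0.04. The median difference was 0.00 in the first table and 0.05 in the second. The difference between the tables was itself tested for each gene, and 0 genes, 0%, passed (309 at an unadjusted p under 0.05, and the smallest adjusted p was 0.98). Since no gene passed at CT12, the genes below are named by a rule and their values are descriptions: each has an adjusted p of 1 by limma unless another value is given.

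**Figure D2:**
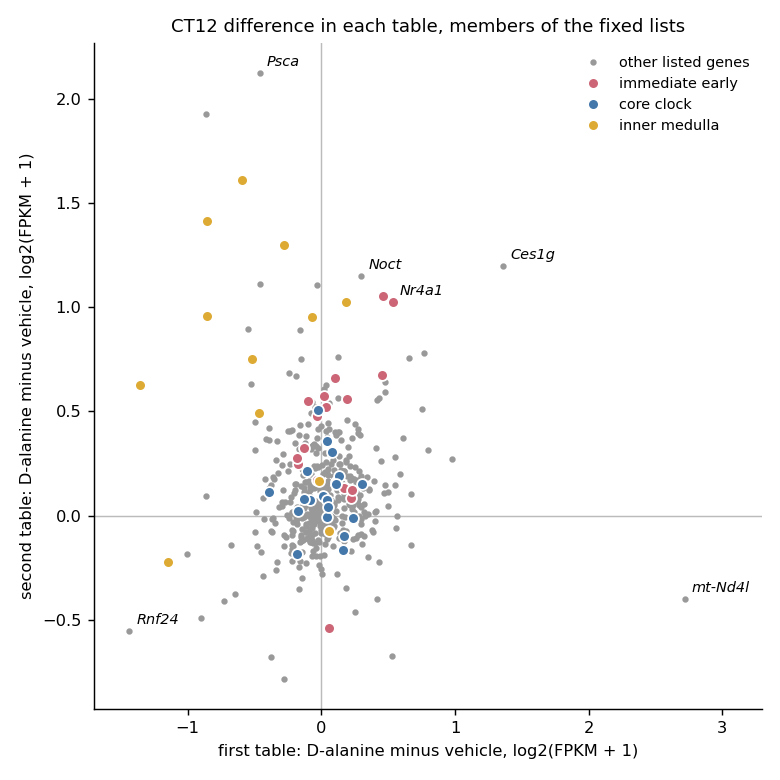
D-alanine minus vehicle at CT12 on the log2(FPKM + 1) scale, in the first table (horizontal axis) and the second (vertical axis), 1 point per gene of the listed pathways and markers. Immediate early genes lie mostly above 0 on the vertical axis (median 0.40) and nearer 0 on the horizontal (median 0.08), inner medulla genes differ in opposite directions in the tables (medians -0.49 and 0.85), and core clock genes lie near 0 on both.

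Noct encodes nocturnin, an NADP(H) phosphatase of the circadian output that peaks around the early night in many tissues. It was at 3.34, 3.96, 2.55 and 1.82 FPKM in vehicle and at 8.17, 2.56, 6.66 and 5.43 with D-alanine. The groups overlapped through D-alanine replicate 2 alone, which is 1 of the 3 libraries with high inner medulla markers. D-alanine replicate 4, at 5.43, is another of these 3, and a link between Noct and the marker level was not tested. The difference was 0.72 ± 0.20 (SE), with a 95% interval of 0.32 to 1.12, and was 0.30 in the first table and 1.15 in the second. It was called without D-alanine replicate 2 (1.04, limma adjusted p = 0.00603) and without the 3 libraries of high inner medulla level (1.15, adjusted p = 0.0352), and in no other setting tried. With the inner medulla level as a covariate the Noct difference was 0.74 (limma adjusted p = 0.9999). Over the day the highest vehicle mean was at CT16, 4.12 ± 0.80 FPKM (SD, n = 4), against 2.80 ± 0.47 with D-alanine, and the highest D-alanine mean was at CT12, 5.70 ± 2.38 against 2.92 ± 0.93. The difference at CT12 minus the mean of the other 5 times was 0.69 (adjusted p = 1 by limma with all libraries, 0.0466 without D-alanine replicate 2).

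Among immediate early genes, whose transcripts appear within minutes of a stimulus, Nr4a1, the orphan nuclear receptor NUR77, had the smallest p. Its level was 2.11, 1.55, 1.62 and 0.793 FPKM in vehicle and 3.74, 2.51, 3.70 and 3.15 with D-alanine, so the groups did not overlap. The difference was 0.78 ± 0.21 (95% interval 0.36 to 1.20) and 1.01 without the 3 libraries. Klf2, a flow-responsive transcription factor of endothelium, was at 18.0, 9.87, 10.2 and 9.51 in vehicle and 16.6, 20.9, 15.9 and 16.8 with D-alanine, a difference of 0.56 ± 0.18. Vehicle replicate 1 lay within the D-alanine range and the other 3 vehicle libraries below it. Ier3, a stress-induced survival gene, was at 22.3, 18.7, 23.1 and 15.4 in vehicle and 35.2, 23.0, 36.04 and 44.8 with D-alanine (0.76 ± 0.28), and its groups overlapped by 1 library on each side. Nr4a1 and Ier3 are also in the list, taken up below, that earlier results of these data picked over all times. That choice included the CT12 libraries, so the values of both genes here are no independent evidence of direction. Of 18 immediate early genes tested, 17 had a difference above 0, with Myc the exception at -0.24 (-0.64 without the 3 libraries), and the list's median was 0.20 beside 0.03 for all genes. This median was 0.08 in the first table and 0.40 in the second, and 0.16 without the 3 libraries, where 14 of 18 were above 0. Egr1, Jun and Atf3, transcription factors of the same response, had differences of 0.15 (0.09 without the 3 libraries), 0.38 and 0.15, each with a 95% interval that included 0.

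Serum response factor drives part of the immediate early response and, with YAP, many genes of the actin cytoskeleton. Its gene Srf was at 6.93, 3.49, 5.76 and 5.27 FPKM in vehicle and 6.26, 5.77, 6.71 and 8.20 with D-alanine (0.30 ± 0.14), with overlapping groups. Ctgf, the secreted matricellular factor CCN2, was at 15.9, 15.1, 17.2 and 18.7 in vehicle and 23.2, 25.2, 27.6 and 19.96 with D-alanine. These groups did not overlap, and the difference was 0.49 ± 0.22. Of 15 genes tested, 14 differed by more than 0 and the median was 0.21, against 11 of 15 and 0.17 without the 3 libraries.

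The stretch just upstream of the start is shown for Noct and Nr4a1, which had among the smallest p-values, and for Chac1, a gene of the amino acid stress response taken up next. Each line gives the 250 bases before the start in RefSeq for GRCm38.p6, 5′ to 3′ on the plus strand, on which all 3 genes lie: Noct chr3:51224197-51224446, Nr4a1 chr15:101266596-101266845 and Chac1 chr2:119350992-119351241. Capitals mark matches, on either strand, to 3 motifs: CACGTG, the E-box of the clock activators, TGACG, the core of the cyclic AMP response element, and TGATGNAA, the element read by ATF4 with C/EBP partners.
Noct: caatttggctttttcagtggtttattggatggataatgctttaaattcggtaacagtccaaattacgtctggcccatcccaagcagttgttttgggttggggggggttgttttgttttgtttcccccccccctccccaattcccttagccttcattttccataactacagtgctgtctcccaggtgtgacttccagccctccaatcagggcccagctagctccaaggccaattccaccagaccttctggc
Nr4a1: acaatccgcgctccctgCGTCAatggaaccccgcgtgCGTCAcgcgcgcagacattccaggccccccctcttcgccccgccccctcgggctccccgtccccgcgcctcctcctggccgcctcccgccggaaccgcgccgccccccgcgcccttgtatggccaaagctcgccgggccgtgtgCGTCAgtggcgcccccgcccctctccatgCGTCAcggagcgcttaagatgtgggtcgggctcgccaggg
Chac1: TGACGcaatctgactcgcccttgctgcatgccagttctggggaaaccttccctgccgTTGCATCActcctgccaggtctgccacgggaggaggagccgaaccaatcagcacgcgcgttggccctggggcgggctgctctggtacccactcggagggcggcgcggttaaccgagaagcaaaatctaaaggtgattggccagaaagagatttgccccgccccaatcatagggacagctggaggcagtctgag
The Nr4a1 stretch held 4 matches to TGACG, all on the opposite strand and so printed as CGTCA, the nearest 36 bases before the start. Chac1 held 1 match to TGACG at its far end and 1 to TGATGNAA on the opposite strand, 186 to 193 bases before the start. In the Noct stretch none of the 3 motifs matched. Of 32851 stretches of this length in the table, 6.02% held CACGTG, 17.8% TGACG and 3.45% TGATGNAA, and a match or its absence is a description of these letters only.

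The amino acid stress list holds ATF4 and its targets, which are induced when an amino acid runs short. Chac1, a glutathione-degrading enzyme and sensitive ATF4 target, was at 0.385, 0.469, 0.368 and 0.730 FPKM in vehicle and 1.06, 0.759, 1.37 and 1.15 with D-alanine. All D-alanine values lay above all vehicle values, at a level near the low end of detection, and the difference was 0.48 ± 0.16. Ddit3, which encodes the stress factor CHOP, was at 15.6, 13.6, 9.84 and 12.8 in vehicle and 18.2, 17.9, 13.8 and 16.4 with D-alanine (0.34 ± 0.16). Its groups were apart within each table and overlapped across tables. Of 13 genes tested, 11 had a difference above 0 and the median was 0.15, but the amino acid synthesis target Asns (-0.09) and the kinase-like Trib3 (-0.12, and -0.24 without the 3 libraries) lay below 0. Without the 3 libraries 9 of 13 were above 0, with a median of 0.12.

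Genes that handle D-alanine itself showed small differences. Dao, D-amino acid oxidase, was at 109, 116, 175 and 160 FPKM in vehicle and 139, 87.9, 166 and 169 with D-alanine, and its difference of -0.01 had a 95% interval of -0.25 to 0.22. Ddo, D-aspartate oxidase, differed by -0.08 (-0.37 to 0.22). Both values turned sign without the 3 libraries of high inner medulla level, to 0.12 for Dao and 0.06 for Ddo. In the whole list of 13 tested enzymes and transporters, 3 were above 0, the range was -0.20 to 0.19 and 0 reached an unadjusted p under 0.05. The list's median was -0.05, and without the 3 libraries of high inner medulla level it was 0.06, with 8 of 13 above 0. The lactate and pyruvate importer Slc5a8 was the lowest at -0.20, and Agxt2, a mitochondrial aminotransferase that uses alanine, the highest at 0.19.

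The kidney makes glucose from lactate, glutamine and alanine, and its gluconeogenic genes are under hormonal and clock control. Of 17 gluconeogenic enzymes tested, 0 reached an unadjusted p under 0.05, and the differences ran from -0.13 to 0.26 with a median of 0.02. Pck1, the phosphoenolpyruvate carboxykinase that commits carbon to glucose, differed by -0.08 (0.07 without the 3 libraries), and G6pc, the glucose-6-phosphatase of the last step, by 0.16. Got1, the cytosolic aspartate aminotransferase, was at 22.0, 22.9, 27.0 and 31.2 FPKM in vehicle and 25.3, 24.2, 32.6 and 36.8 with D-alanine. Its D-alanine libraries were the higher ones within each table, by 0.19 ± 0.10 over both. Among 25 regulators, Nr4a1 (0.78) and the CREB coactivator kinase Sik1 (-0.41) had the largest differences of opposite sign. Sik1 was at 42.0, 33.7, 50.6 and 37.5 in vehicle and 27.3, 19.7, 41.7 and 37.3 with D-alanine, and its 95% interval was -0.86 to 0.04. Its difference was -0.21 without the 3 libraries, and the regulators had a median of -0.00 with 11 of 25 above 0, beside 0.06 and 15 of 25 with all libraries. For the enzymes the median without them was 0.07, with 14 of 17 above 0.

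Fatty acid oxidation, the main fuel pathway of the proximal tubule, had a median below 0. Of 22 genes tested 8 were above 0, the median was -0.07 and the range -0.21 to 0.17, and 0 reached an unadjusted p under 0.05. In 4 of them both D-alanine libraries lay below both vehicle libraries within each table, against 1.66% of all genes, and these members include Eci1, an enoyl-CoA isomerase, at 75.1, 86.7, 105 and 92.7 FPKM in vehicle and 68.1, 64.8, 92.6 and 92.1 with D-alanine (-0.18 ± 0.09). Pdk4, the kinase that holds back glucose oxidation during fasting, was at 2.05, 2.51, 5.15 and 4.28 in vehicle and 0.838, 2.45, 2.58 and 2.52 with D-alanine, with a 95% interval of -1.21 to 0.15 around -0.53, and a difference of -0.89 without the 3 libraries. D-alanine replicate 1, the lowest library for Pdk4, is kept in that setting and weighs more there.

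Markers of the S3 segment, the straight end of the proximal tubule in the outer medulla, were below 0 in 5 of 6 cases with a median of -0.19. These 5 include Acy3, at -0.002 with all libraries and 0.13 without the 3 of high inner medulla level. Slc7a13, also below 0, was at 185, 244, 367 and 333 FPKM in vehicle and 196, 229, 368 and 313 with D-alanine. Slc5a10, the marker above 0, differed by 0.22. Atp11a, a phospholipid flippase high in S3, was at 124, 95.3, 145 and 142 FPKM in vehicle and 74.5, 86.0, 109 and 127 with D-alanine, a difference of -0.36 ± 0.15. Slc22a7, the organic anion transporter OAT2, was at 95.3, 74.1, 145 and 186 in vehicle and 43.6, 58.0, 124 and 123 with D-alanine (-0.57 ± 0.30). For both genes the D-alanine libraries were below the vehicle libraries within each table and overlapped with them across tables. Cyp7b1, an oxysterol hydroxylase, was at 65.2, 36.8, 116 and 101 in vehicle and 13.9, 40.5, 97.6 and 92.3 with D-alanine, where D-alanine replicate 1 was the lowest. After rescaling to TPM, or rescaling without mitochondrial genes, 3 of the 6 markers were above 0. General proximal tubule markers had a median of 0.11, with the transporter Slc22a8 highest at 0.37 and a 95% interval of -0.14 to 0.87. The median was 0.22 without the 3 libraries and Slc22a8 then differed by 0.60.

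The list of 15 genes that earlier results of these data had picked over all 6 times includes the CT12 libraries in its choice, so its values here are no independent evidence of direction. Of the 15, 5 were higher and 2 lower at an unadjusted p under 0.05, where 1.49% and 0.777% of all genes were. Such counts follow in part from the choice of the list. The median of 0.21 was 0.13 without the 3 libraries. Ces1g, a carboxylesterase and triglyceride hydrolase, was at 1.74, 1.97, 3.24 and 3.75 FPKM in vehicle and 6.02, 6.65, 6.65 and 12.8 with D-alanine. The groups did not overlap, and the difference of 1.28 ± 0.37 (95% interval 0.53 to 2.03) was 1.36 in the first table and 1.20 in the second. Mdk, the heparin-binding growth factor midkine, was at 12.2, 10.7, 9.86 and 12.1 in vehicle and 19.9, 13.2, 19.0 and 16.2 with D-alanine, again without overlap (0.56 ± 0.23). Rnf24, a membrane-bound ubiquitin ligase, was at 34.7, 50.3, 40.5 and 44.7 in vehicle and 12.3, 17.9, 32.1 and 25.6 with D-alanine. All D-alanine values lay below all vehicle values, with a difference of -0.99 ± 0.30 (95% interval -1.60 to -0.38). Cyp2a5, a xenobiotic-metabolising cytochrome P450 that has near-identical neighbours, was at 52.8, 58.2, 77.6 and 47.5 in vehicle and 155, 57.9, 117 and 94.2 with D-alanine (0.77 ± 0.30, and 1.23 without the 3 libraries). In contrast, Tmem52 and Bag3, also picked over all times, differed at CT12 by -0.12 and 0.15.

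A choice that left the CT12 libraries out gives values independent of it. In a fit of the other 40 samples, 176 genes were higher and 14 lower with D-alanine at an adjusted p under 0.05, a selection made after the data were seen. At CT12 136 of the 176 were above 0, where 8956 of 14802 genes were, with a median of 0.06 beside 0.03. Their median was 0.01 in the first table and 0.13 in the second. Of the 14 genes, 12 were below 0 at CT12, with a median of -0.16. None of these 190 genes was called at CT12. Ces1g (0.90 at the other times) and Mdk (0.58) are among the 176, and their CT12 differences were 1.28 and 0.56. The abundant mitochondrial transcripts mt-Co1 and mt-Cytb, at -0.25 and -0.27 over the other times, differed at CT12 by -0.03 and -0.04.

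**Figure D3:**
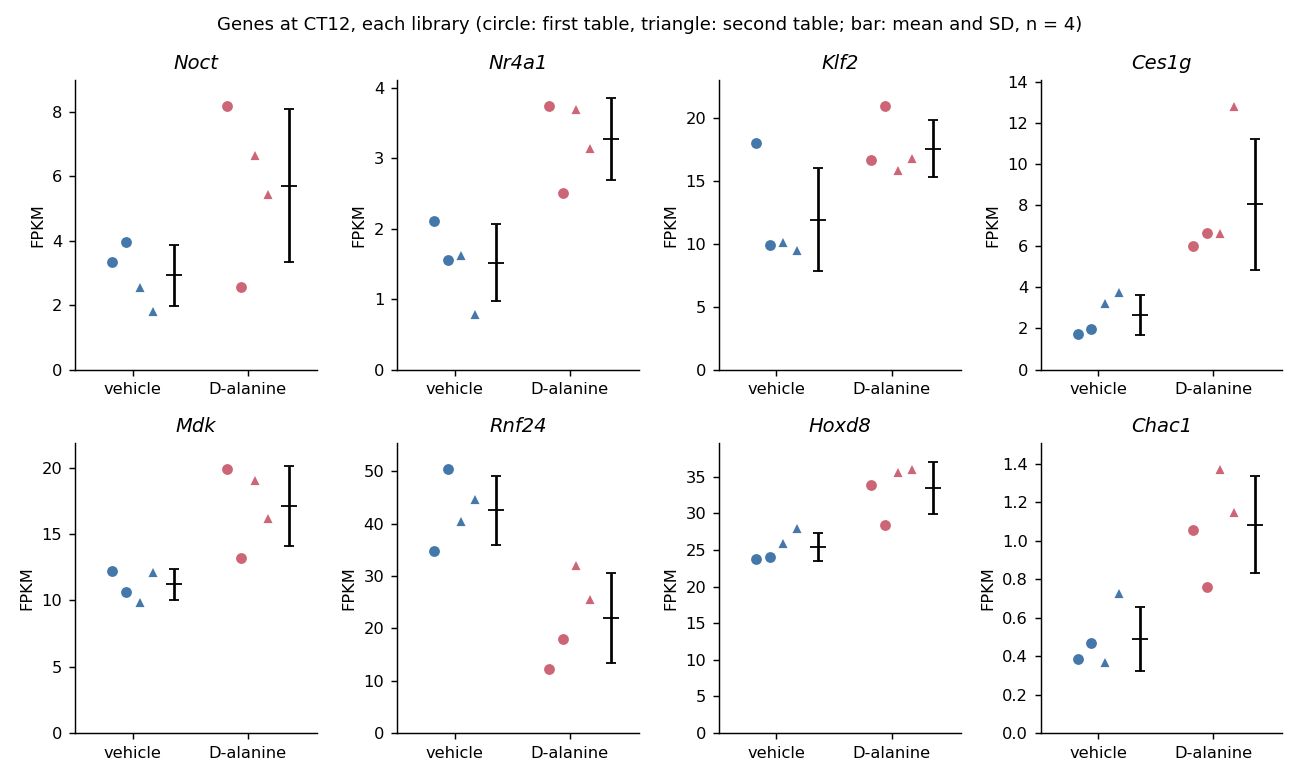
FPKM of 8 genes in each CT12 library, vehicle left and D-alanine right, circles for the first table and triangles for the second, with the mean and SD of 4 libraries. D-alanine and vehicle do not overlap for Nr4a1, Ces1g, Mdk, Rnf24, Hoxd8 and Chac1, and they overlap through D-alanine replicate 2 for Noct and through vehicle replicate 1 for Klf2. The genes were named with small p-values at CT12 or from the list picked over all times, so their separation is a description. Over all genes, 0.911% had all 4 D-alanine values above all 4 vehicle values and 0.268% below.

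No core clock gene was called at CT12. All 19 core clock genes were measured, 0 reached an unadjusted p under 0.05, and in 0 of them were the groups apart within both tables. Differences ran from -0.18 to 0.24 with a median of 0.05, and 14 of 19 were above 0 beside 60.4% of all genes. That count was 16 after rescaling to TPM, 12 after centring each library on its median gene and 11 without the 3 libraries of high inner medulla level. Per1, a Period repressor, was at 17.2, 17.8, 15.7 and 14.2 FPKM in vehicle and 21.4, 15.96, 19.4 and 18.1 with D-alanine (95% interval -0.22 to 0.60). Per2, its paralogue, was at 25.02, 24.3, 14.2 and 14.8 in vehicle and 27.8, 23.4, 19.4 and 18.3 with D-alanine (-0.16 to 0.56), with both vehicle libraries of the second table below both D-alanine libraries. Cry1, the late repressor, had the largest difference of the list, 0.24 with an interval of -0.18 to 0.66, at 1.98 ± 0.48 FPKM in vehicle and 2.51 ± 0.44 with D-alanine (SD, n = 4). Nr1d1, which encodes REV-ERB alpha, had the lowest, -0.18 with an interval of -0.85 to 0.48. The differences for Per1, Per2 and Nr1d1 were 0.19, 0.20 and -0.18 with all libraries and 0.30, 0.33 and -0.32 without those 3.

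Dbp, the clock-driven activator of liver and kidney output genes, was at 63.6, 74.4, 76.8 and 70.3 FPKM in vehicle and 94.6, 69.9, 73.9 and 71.8 with D-alanine. Its difference of 0.11 had an interval of -0.43 to 0.66. Ciart, a repressor of CLOCK-BMAL1, was at 12.2, 12.2, 12.2 and 8.15 in vehicle and 21.6, 10.8, 11.6 and 10.8 with D-alanine. D-alanine replicate 1 was thus the highest library for Ciart, Dbp and Noct. The difference for Ciart was 0.23, and 0.47 without the 3 libraries, where D-alanine replicate 1 is kept and weighs more. Arntl was near its trough in both groups, at 0.233 ± 0.095 FPKM in vehicle and 0.282 ± 0.20 with D-alanine (SD, n = 4), and Clock had a mean of 1.70 in both. Their differences of 0.05 and -0.01 were -0.06 and -0.09 without the 3 libraries. Of 14 clock output genes tested, Noct alone reached an unadjusted p under 0.05, and the list's median was 0.00, or 0.06 without the 3 libraries.

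**Figure D4:**
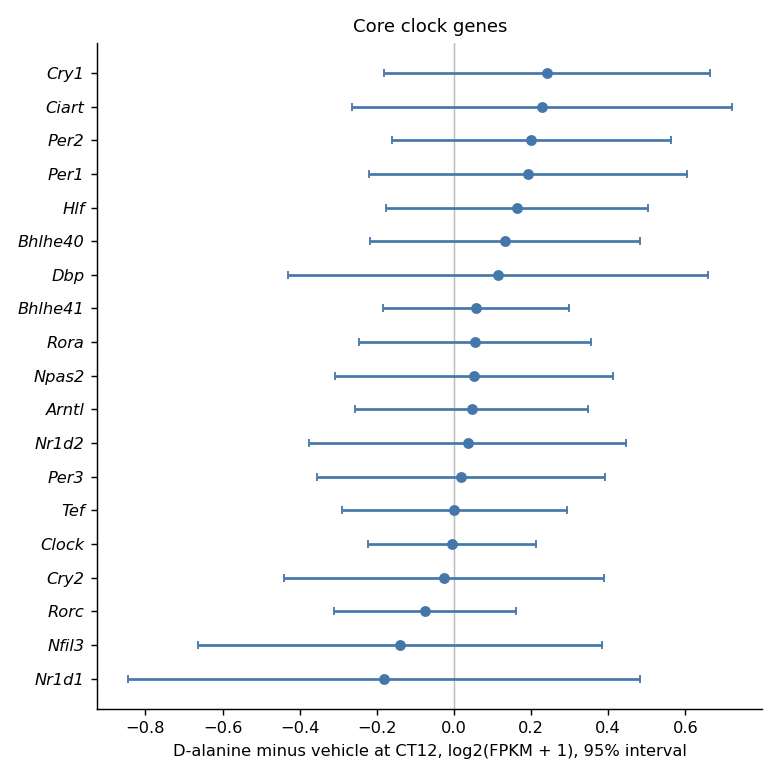
D-alanine minus vehicle at CT12 for the 19 core clock genes on the log2(FPKM + 1) scale, points with 95% intervals from the model. The intervals of all 19 genes include 0, and the points run from -0.18 (Nr1d1) to 0.24 (Cry1).

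Among the genes chosen by smallest p with groups apart in both tables were a pair of genes in the HoxD cluster, whose transcription factors keep the identity of body segments and of kidney tubule. Hoxd8 was at 23.8, 24.1, 25.9 and 28.0 FPKM in vehicle and 33.9, 28.4, 35.6 and 36.015 with D-alanine, and Hoxd10 at 5.16, 5.60, 4.70 and 5.12 in vehicle and 6.91, 9.58, 6.60 and 8.18 with D-alanine. Neither overlapped between groups, and the differences were 0.38 ± 0.10 and 0.51 ± 0.15. They were 0.43 and 0.34 without the 3 libraries. They lie on chromosome 2 (Hoxd8 at chr2:74704615-74707933, Hoxd10 at chr2:74691924-74695105 in GRCm38). Hoxd9, between them, differed by 0.27 with an interval of -0.02 to 0.56. All 5 HoxD genes tested were above 0 with a median of 0.29, beside 5 of 10 in HoxA, 5 of 8 in HoxB and 7 of 7 in HoxC with medians of -0.00, 0.02 and 0.10. The clusters were looked at after the values of Hoxd8 and Hoxd10 were seen, and both genes are in the HoxD count and median. Hoxd3 and Hoxd4, also counted, overlap on the chromosome and may share reads. The difference between clusters was not tested. At the other times Hoxd8 differed by 0.04 on average. Its vehicle mean at CT12, 25.5 FPKM, was its lowest over the day, beside 29.0 to 35.7 at the other times. The D-alanine mean at CT12, 33.5 FPKM, lay within the D-alanine means of the other times, 30.2 to 36.9.

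The other higher genes of that rule included Nr4a1, Ces1g, Mfsd7b, Wdsub1, Gimap1, Dok4 and Noc4l. Mfsd7b, a heme exporter also known as FLVCR1, differed by 0.53, Gimap1, a lymphoid GTPase, by 0.35, and Noc4l, a nucleolar protein of small ribosomal subunit assembly, by 0.35.

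The lower genes of the rule included Rnf24, Tfb1m, C8a, Snord87, Apoa1bp, Ppp1r10, Pddc1, Mrpl21 and Snord4a. Tfb1m, the methyltransferase that modifies mitochondrial ribosomal RNA, was at 4.62, 3.47, 5.07 and 4.05 FPKM in vehicle and 3.26, 2.16, 2.76 and 3.04 with D-alanine (-0.48 ± 0.15), and C8a, a chain of complement component C8, at 10.4, 9.26, 11.7 and 10.9 in vehicle and 3.55, 8.10, 9.17 and 6.89 with D-alanine (-0.60 ± 0.21). Neither gene overlapped between groups, but the rule had picked them for groups apart in each table. All 4 D-alanine values lay below all 4 vehicle values for 0.268% of all genes. Snord87 and Snord4a are small nucleolar RNAs inside introns of host genes, and their differences of -1.01 and -1.37 rest on levels of at most 8.11 FPKM for very short genes. Apoa1bp, which repairs damaged NADPH, was the most abundant of those named, at 99.8 ± 23 FPKM in vehicle and 88.0 ± 21 with D-alanine (SD, n = 4), with the tables apart by more than the groups.

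The mitochondrial genome encodes core parts of the oxidative phosphorylation machinery. Of 13 such mRNAs 3 had a difference above 0, and the median was -0.09. mt-Co1, the catalytic subunit of cytochrome oxidase, had 17323 to 60406 FPKM over the 8 libraries and a difference of -0.03 (95% interval -0.26 to 0.21). mt-Nd4l, a small complex I subunit, was at 209, 261, 142 and 131 FPKM in vehicle and 816, 2912, 107 and 99.5 with D-alanine, so the first table gave 2.72 and the second -0.40. Its overall difference of 1.16 was 0.61 without the 3 libraries. D-alanine replicate 2 was also the highest library for mt-Nd6, at 3346 FPKM beside 487 to 825 in the other D-alanine libraries, and the difference of 0.35 turned to -0.28 without the 3 libraries. mt-Co2 was at 2028, 1674, 2054 and 3609 in vehicle and 974, 996, 2854 and 1317 with D-alanine, with an interval of -1.53 to 0.14.

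Blood and vessel markers lay above 0 as lists. All 6 red blood cell genes tested were above 0 with a median of 0.39, and their summed FPKM ran from 129 to 179 in vehicle and 178 to 274 with D-alanine. Hbb-bs, an adult beta globin, was at 72.7, 49.0, 63.1 and 70.5 in vehicle and 81.6, 126, 83.3 and 110 with D-alanine (0.63 ± 0.30). Its groups did not overlap, and D-alanine replicates 2 and 4, of high inner medulla level, were the highest. Without the 3 libraries the difference was 0.48 and 4 of the 6 genes were above 0. All 9 endothelial genes were above 0 (median 0.25, and 0.13 with 7 of 9 without the 3 libraries), among them Kdr, the VEGF receptor, at 3.81, 3.34, 3.25 and 4.01 in vehicle and 4.04, 5.04, 4.35 and 4.04 with D-alanine. All 8 smooth muscle and pericyte genes and all 7 fibroblast genes were also above 0, with medians of 0.18 and 0.19, and so were all 7 parietal and urothelial genes, with a median of 0.39. Without the 3 libraries the medians were 0.22, 0.17 and 0.04, with 8 of 8, 5 of 7 and 6 of 7 genes above 0. Klf2, Nr4a1 and Ctgf are expressed by vessels and stroma as well as tubules, and the part these cells have in the immediate early and actin values was not tested.

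Heat shock genes were above 0 in 14 of 15 cases with a median of 0.15, which was -0.04 in the first table and 0.30 in the second. Without the 3 libraries 10 of 15 were above 0 (median 0.10). Hsf1, the heat shock factor, was at 17.1, 14.6, 16.4 and 14.5 FPKM in vehicle and 19.0, 17.3, 17.8 and 19.5 with D-alanine (0.22 ± 0.09), without overlap. Cytosolic ribosomal proteins ran from -0.08 to 0.10 and nuclear genes of oxidative phosphorylation from -0.15 to 0.08. Of 14 proteasome genes 7 were above 0, and Psmd11, a lid subunit, had a difference of -0.19 ± 0.08. All 6 thick ascending limb markers were below 0, with a median of -0.06, and 1 of 6 was above 0 after rescaling to TPM. The thick ascending limb median was -0.19 in the first table and 0.01 in the second. Without the 3 libraries all 6 were below 0, with a median of -0.20, but D-alanine replicate 1 is then alone for D-alanine in the first table. That library had the lowest value of the CT12 libraries for each of these markers. For Umod it was at 153 FPKM, beside 211 to 466 in the others. Interferon-stimulated genes were above 0 in 15 of 16 cases with a median of 0.13, and in 9 of 16 with a median of 0.01 without the 3 libraries of high inner medulla level.

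Whether the CT12 difference departed from that at the other 5 times was tested gene by gene, with separate vehicle groups at each time. By limma 0 genes, 0%, passed, with 264 at an unadjusted p under 0.05 and a smallest adjusted p of 0.9998. Among the 5 genes with the smallest p on the higher side were Noct, Hoxd8, Mterf1b and Noc4l, and the 5 on the lower side were Ppp1r10, Fmr1nb, Mir31, Psmd11 and Hsd17b1. Ppp1r10, a nuclear targeting subunit of protein phosphatase 1, was at 12.2, 7.63, 9.66 and 10.2 FPKM in vehicle and 5.40, 6.85, 6.69 and 9.28 with D-alanine, a difference of -0.44 beside 0.28 at the other times. Hsd17b1, a steroid dehydrogenase, was at 1.14, 1.07, 1.12 and 1.02 in vehicle and 0.646, 0.928, 0.435 and 0.802 with D-alanine (-0.30, and -0.47 without the 3 libraries). Mir31, the gene of a microRNA, was at 2.55, 2.72, 0 and 3.22 in vehicle and listed at 0 in all 4 D-alanine libraries, which for so short a gene means 3, 3, 0 and 4 fragments. Fmr1nb, a testis-restricted gene, was at 1.25, 0, 3.64 and 2.003 in vehicle and 0, 0.408, 0 and 0.191 with D-alanine.

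**Figure D5:**
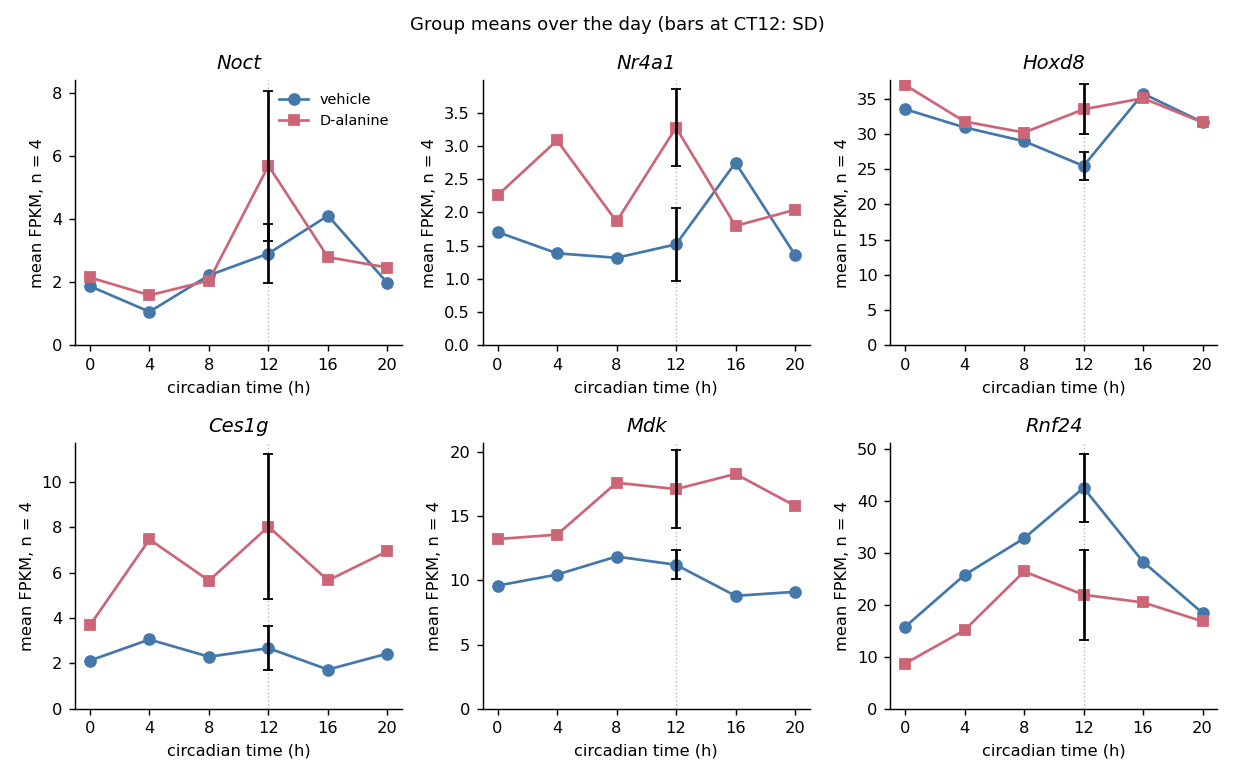
Group means in FPKM at the 6 circadian times for 6 genes, vehicle in blue and D-alanine in red, 4 libraries per point, with SD bars at CT12 only. The Noct means cross between CT12 (2.92 and 5.70) and CT16 (4.12 and 2.80), Ces1g and Mdk are higher and Rnf24 lower with D-alanine at each of the 6 times, and Hoxd8 means are 25.5 and 33.5 at CT12.

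Ces1g means were higher with D-alanine at each of the 6 times, by 0.49 at CT0 to 1.28 at CT12, and Rnf24 means were lower at each, by -0.15 at CT20 to -0.99 at CT12. Both genes therefore had their largest difference at CT12, but the test of CT12 against the other times gave 0.38 for Ces1g and -0.53 for Rnf24, each with an adjusted p of 1 by limma. Rnf24 was also at its highest vehicle mean at CT12, 42.5 FPKM. Mdk differed by 0.56 at CT12 and by 0.29 to 0.97 at the other times.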

How the data were processed

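RNA of mouse kidneys was sequenced in 48 libraries, 12 groups of 4. Per the labels, RNeasy columns were used to purify the RNA and a SMARTER mRNA kit to prepare it for sequencing. The authors deposited FPKM per gene in 2 tables, for build GRCm 38 (mm 10) per the submitters' processing notes. The aligner, counter and strand setting were not given in the sources used here, so overlapping genes, antisense genes and near-identical copies may share reads. The series text states that kidneys came from different mice. Within a group and table, replicates differed by more than counting error.

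Genes with at least 1 FPKM in 4 of 48 libraries (14922) were tested with limma 3.58.1 (R 4.3.3) on log2(FPKM + 1) with 12 groups and the table as terms, and Benjamini-Hochberg adjustment over all of them. Contrasts were D-alanine minus vehicle at CT12, that difference minus the mean of the other 5 times, and, in a model with groups split by table, the second table minus the first. Values for 1 quantity per library were tested by exact permutation within tables (36 arrangements). Low FPKM values were whole multiples of 1 fragment for 97.1% to 97.7% of the low values of genes with 1 transcript and for 92.2% to 93.4% over all genes (within 0.05 of a whole number, under 20 fragments), and this gave the library totals and the fragments for limma voom. The code was tested on simulated data.

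The members and lists (27 pathway and 25 marker lists) were chosen with earlier results of these data known. Named genes were the members of the lists, the 10 named genes with the smallest p on each side among those with both D-alanine libraries above, or below, both vehicle libraries in each table, and the 5 on each side with the smallest p for CT12 against the other times. Unnamed clones were passed over, and some genes that the rule names are not reported here. Alternatives covered the pseudocount, filter, scaling, model, tables and left-out libraries. Leaving out the 3 libraries of high inner medulla level was chosen after seeing the data. Promoter stretches come from RefSeq.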

Additional observations from a re-analysis of the deposited data

Results flagged for a closer look

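Per-library values of 66 genes and of 3 library measures were screened within each CT12 group of 4 for a library far from the other 3, by Dixon's gap test at the 95% level. Of 138 groups, 11 had such a library. The test's chance rate of about 1 in 20 holds for independent normal values. These groups pool 2 tables and draw on the same 8 libraries and related genes, so the count cannot be judged against that rate. D-alanine replicate 4 stood apart for Ces1g (12.8 FPKM), and D-alanine replicate 2 for mt-Nd6 (3346 FPKM). D-alanine replicate 1 stood apart for Dbp (94.6 FPKM), Ciart (21.6 FPKM) and Pdk4 (0.838 FPKM, the lowest of its group). Vehicle replicate 1 stood apart for Klf2 (18.0 FPKM), for Slc14a2, Aqp4 and Akr1b3 (31.4, 30.9 and 95.01 FPKM) and for the mean log2 level of the inner medulla markers (5.17). Vehicle replicate 4 was low for Ciart (8.15 FPKM).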

How the results depend on the processing

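The count of 0 genes called at CT12 became 1 without a filter on low values (Nodal, 0.13, adjusted p = 0.00876 by limma, with at most 0.128 FPKM in any CT12 library), 1 in the first table alone (Mir143, 1.29, adjusted p = 0.00294) and 1 without the 3 libraries of high inner medulla level (Noct, 1.15, adjusted p = 0.0352). Leaving out 1 library at a time gave 0 to 1 genes for each of the 3 counts. These were Noct without D-alanine replicate 2, at CT12 and against the other times, and for the difference between tables Gm44589 without vehicle replicate 3 (-2.79, adjusted p = 0.0159) and Gm27626 without D-alanine replicate 1 (-3.28, adjusted p = 0.0239). Genes at an unadjusted p under 0.05 at CT12 numbered 159 of 14922 without the table term to 682 of 14922 in the second table alone. Without a filter they numbered 1191, but of 30193 genes. The share of these that was higher moved with scaling, from 222 of 338 to 296 of 380 with TPM, 291 of 384 rescaled without mitochondrial genes, 145 of 340 with quantile normalization and 126 of 309 with median centring. For the CT12 share of FPKM from mitochondrially encoded genes the difference was 0.323 percentage points in the first table and -0.974 in the second, and -5.73 to 5.21 leaving out 1 library. For the inner medulla marker level at CT12 it was -0.493 and 0.749, and -0.241 to 0.650. The cause was not tested. Over 239 named genes, 5947 values were recomputed, and 190 had the other sign. No paired analysis was possible because the replicate numbers follow the order of the samples and pair nothing. At 9951212 to 12007055 fragments a library, genes near 1 FPKM rest on few fragments.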
